A study of Mus musculus with 5 samples.

Results

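The intermediate filament genes of astrocytes, Gfap, Vim, Nes and Synm, were taken from the table of raw counts by gene symbol, and all 4 were found among its 35976 genes. The libraries came from mice of genotype Ccr2::CreERT2/+;DTR/+, in which the Ccr2 locus drives a tamoxifen-inducible Cre and Cre switches on a diphtheria toxin receptor. Mice of both groups were given tamoxifen, 18 days of tube restraint, fear conditioning and extinction. The DTx group received diphtheria toxin (DTx), which kills cells that carry the receptor, and the saline group received saline in its place. The series compared the groups to ask what depletion of monocytes during chronic stress does to amygdala astrocytes, and it holds no group without stress. Astrocytes were collected from papain-digested amygdala on beads against ACSA-2, an antigen that the gene Atp1b2 encodes. The libraries analysed here were 3 DTx libraries, called 5A, 6A and 7A after their column names, and saline replicates 1 and 2. By the series' design text each group had 3 animals, and 1 saline library was not analysed here. No age or sex is stated in the labels.

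Intermediate filaments are the tough, rope-like fibres of the cytoskeleton, built from coiled rod proteins that differ between cell types. Mature astrocytes build them mainly from GFAP, with vimentin as a partner, and reactive astrocytes after injury or inflammation are classically recognised by more GFAP. Nestin and vimentin are filaments of neural stem and radial glial cells that reactive astrocytes can take up again, while synemin is a large filament protein that joins a network of GFAP or vimentin and does not form filaments alone.

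Total counts were 15961220 to 18708138 in the DTx libraries and 20577672 and 23720299 in the saline libraries. Ccr2 itself had 54, 4 and 4 counts with DTx (5A, 6A, 7A) and 0 in both saline libraries, so depletion could not be read from these astrocyte libraries and the directions below are those of the labels. Xist, expressed from the inactive X chromosome, was at 0 to 0.159 CPM (counts scaled to a common library size) in the DTx libraries and 128.9 to 172.6 CPM in the saline libraries. A set of 4 Y-linked genes summed to 185.4 to 201.2 CPM in the DTx libraries and 0.0897 to 0.185 CPM in the saline libraries, so treatment and sex chromosomes cannot be told apart in any comparison here. The 14 astrocyte identity genes fixed as markers were all detected and summed to 29237 to 32828 CPM in the DTx libraries and 29942 to 30283 CPM in the saline libraries. The 7 oligodendrocyte markers summed to 41468, 42792 and 87537 CPM with DTx in 5A, 6A and 7A and 58052 and 89281 CPM in saline replicates 1 and 2, so the selected material also held much myelin RNA. In bulk RNA of this kind fewer cells of a type and less RNA per cell cannot be told apart.

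The 4 genes lie on separate chromosomes, and the start regions of 3 of them are shown because Gfap and Synm had the group means that stood apart in opposite directions, while Vim is the classical partner of Gfap. Each sequence runs 5′ to 3′ on the strand of the gene (RefSeq, GRCm38.p6), from 250 bases before the start of transcription to 20 bases after it. All 4 genes had such a window. Capitals mark a match to TTCNNNGAA, the palindrome that STAT transcription factors bind.
Gfap (chr11:102897181-102897450, minus strand): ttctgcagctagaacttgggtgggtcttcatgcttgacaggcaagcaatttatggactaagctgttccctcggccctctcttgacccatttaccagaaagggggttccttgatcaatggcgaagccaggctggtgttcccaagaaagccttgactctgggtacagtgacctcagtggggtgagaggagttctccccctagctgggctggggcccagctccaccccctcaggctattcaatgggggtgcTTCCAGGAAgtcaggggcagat
Vim (chr2:13574061-13574330, plus strand): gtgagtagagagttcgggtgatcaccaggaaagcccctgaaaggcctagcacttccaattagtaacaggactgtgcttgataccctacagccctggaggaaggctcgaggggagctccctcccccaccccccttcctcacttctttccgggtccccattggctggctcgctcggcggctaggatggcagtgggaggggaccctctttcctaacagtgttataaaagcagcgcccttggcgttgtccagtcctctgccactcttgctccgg
Synm (chr7:67759723-67759992, minus strand): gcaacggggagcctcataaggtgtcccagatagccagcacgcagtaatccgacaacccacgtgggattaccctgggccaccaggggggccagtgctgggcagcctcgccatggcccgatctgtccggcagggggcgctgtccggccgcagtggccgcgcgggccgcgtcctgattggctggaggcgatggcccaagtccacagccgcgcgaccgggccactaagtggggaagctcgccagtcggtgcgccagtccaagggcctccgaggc
The search covered both strands for TTCNNNGAA, for the full palindrome of the nuclear factor I family and for TGANTCA, the AP-1 motif. Gfap had the only match of the 4 genes, TTCCAGGAA, from 2 bases before the start to base 7 of the transcript. TTCNNNGAA occurs in 7.58% of the 32851 RefSeq windows of this length, the nuclear factor I palindrome in 0.0365% and TGANTCA in 7.23%. The windows of Vim, Nes and Synm held none of these motifs, which says nothing on binding elsewhere. The windows also differed in base composition, with 2 CpG pairs in Gfap, 9 in Vim, 18 in Nes and 24 in Synm. Their GC content was 55.9% in Gfap, 58.9% in Vim and 70.0% in Synm, and 90.6% of all windows had a lower GC content than Synm.

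Gfap, which encodes the glial fibrillary acidic protein (chromosome 11, 102887336 to 102897200, GRCm38, minus strand), stood apart between the groups without passing the test. It was at 1079, 1132 and 1609 CPM with DTx in 5A, 6A and 7A, against 290.2 and 741 CPM in saline replicates 1 and 2. Every DTx library lay above both saline libraries, and saline replicate 1 was the lowest of all. Ranked by CPM over all genes of the table, Gfap was 83rd, 84th and 55th in these DTx libraries and 408th and 154th in the saline libraries. The group means were 1273 ± 292 CPM (SD, n = 3) with DTx and 515.6 ± 319 CPM (SD, n = 2) with saline. The log2 fold change, DTx over saline, was 1.30 ± 0.43 (SE), or 2.47-fold, with an adjusted p of 0.742 in edgeR's quasi-likelihood test over 15532 genes. Its size turned on the saline libraries, which differed 2.55-fold from each other. Within groups the standard deviation of log2 CPM of Gfap was 0.609. That was larger than in 95.5% of 177 tested genes whose mean level was within 2-fold of that of Gfap. The log2 fold change was 0.78 ± 0.31 (SE) when saline replicate 1 was left out and 2.13 ± 0.34 (SE) when saline replicate 2 was left out. Neither passed, with edgeR adjusted p of 0.834 and 0.354.

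**Figure D1:**
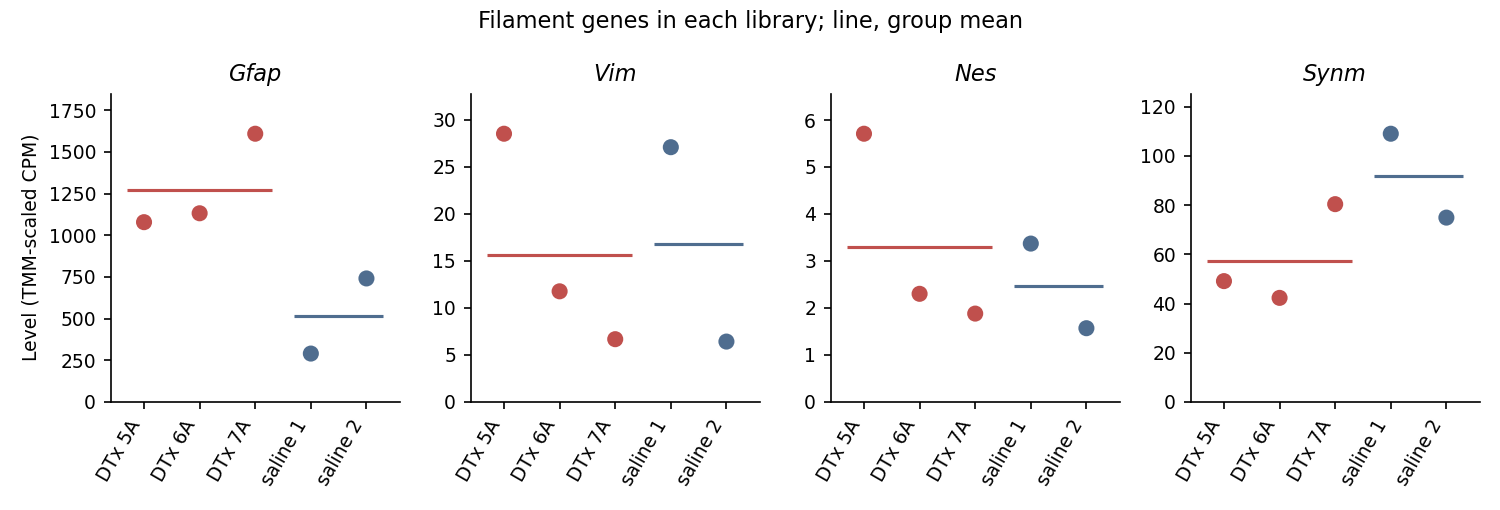
Levels of the 4 filament genes in each library, in CPM after TMM scaling on linear axes that start at 0. Points are libraries (red, DTx; blue, saline) and lines are group means; Gfap is at 1079 CPM or above in the 3 DTx libraries and at 741 CPM or below in both saline libraries, while Vim and Nes are highest in DTx library 5A and saline replicate 1.

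Vim, which encodes vimentin (chromosome 2, 13574311 to 13582826, plus strand), varied within the groups more than between them. It was at 28.5, 11.8 and 6.67 CPM with DTx in 5A, 6A and 7A, against 27.1 and 6.41 CPM in saline replicates 1 and 2. A high and a low library were present in each group, and the groups overlapped fully. The highest DTx library was 4.28-fold above the lowest DTx library, and saline replicate 1 was 4.22-fold above saline replicate 2. The standard deviation of log2 CPM within groups was 1.20. That was larger than in 99.2% of 4557 tested genes whose mean level was within 2-fold of that of Vim. The same share was 95.5% for Gfap, 93.8% for Synm and 86.0% for Nes, each among genes near its own level. The log2 fold change of Vim was -0.09 ± 0.78 (SE, edgeR adjusted p = 0.982), and its sign had no meaning at that error. It was 0.07 without DTx library 6A, 0.28 without DTx library 7A, 1.29 without saline replicate 1, -0.87 without DTx library 5A and -0.79 without saline replicate 2.

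Nes, which encodes nestin (chromosome 3, 87971093 to 87980451, plus strand), was the scarcest of the 4 genes and ordered the 5 libraries as Vim did. It was at 5.71, 2.30 and 1.88 CPM with DTx in 5A, 6A and 7A, against 3.37 and 1.57 CPM in saline replicates 1 and 2. The groups overlapped, with DTx library 5A and saline replicate 1 highest. These levels rest on 108, 37 and 33 counts with DTx and 73 and 35 counts with saline. The 95% exact Poisson intervals were 4.68 to 6.89 CPM in DTx library 5A, and 1.29 to 2.64 CPM in DTx library 7A and 1.09 to 2.18 CPM in saline replicate 2, so the lowest libraries of each group agreed within counting error. The log2 fold change was 0.44 ± 0.58 (SE, edgeR adjusted p = 0.879). Without DTx library 5A it was -0.24, and without saline replicate 2 it was -0.01.

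Synm, which encodes synemin (chromosome 7, 67730161 to 67759742, minus strand), had the lower mean with DTx. It was at 49.1, 42.3 and 80.4 CPM with DTx in 5A, 6A and 7A, against 109 and 74.9 CPM in saline replicates 1 and 2. DTx libraries 5A and 6A were the lowest, and DTx library 7A lay between the saline libraries. The log2 fold change was -0.68 ± 0.31 (SE), with a mean of 57.3 ± 20.3 CPM (SD, n = 3) with DTx and 91.98 ± 24.1 CPM (SD, n = 2) with saline, and the edgeR adjusted p was 0.764. Without DTx library 7A the log2 fold change was -1.01 ± 0.22 (SE, adjusted p = 0.129), and without saline replicate 1 it was -0.39 ± 0.38 (SE, adjusted p = 0.852). In the GENCODE annotation exons of Ttc23 and of Gm45102, both on the other strand, overlap exons of Synm, and no source used here says whether the counting used strand, so the Synm counts are uncertain to that extent.

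Of the 4 filament genes 0 passed at an adjusted p of 0.05, where 0.0322% of all genes tested did. Of all genes tested 0.0258% passed with DTx higher and 0.00644% with DTx lower. The genes that passed were the Y-linked set described above, higher with DTx, and Xist, lower with DTx. Gfap alone of the 4 filament genes had an unadjusted p under 0.05 in edgeR's quasi-likelihood test (0.0204). Of all genes tested 4.49% had one with DTx higher and 2.19% with DTx lower. Synm had one of 0.034 with DESeq2 and 0.0365 with the edgeR likelihood ratio test. DESeq2, limma-voom and the edgeR likelihood ratio test likewise called 0 of the 4 after adjustment, and DESeq2 gave Gfap its lowest adjusted p, 0.0756. Groups did not overlap for 1 of 4 genes with DTx higher and 0 of 4 with DTx lower, against 12.1% and 8.99% of all genes tested, so a gene with separated groups was not rare in these libraries. The median log2 fold change of all genes tested was 0.00238.

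**Figure D2:**
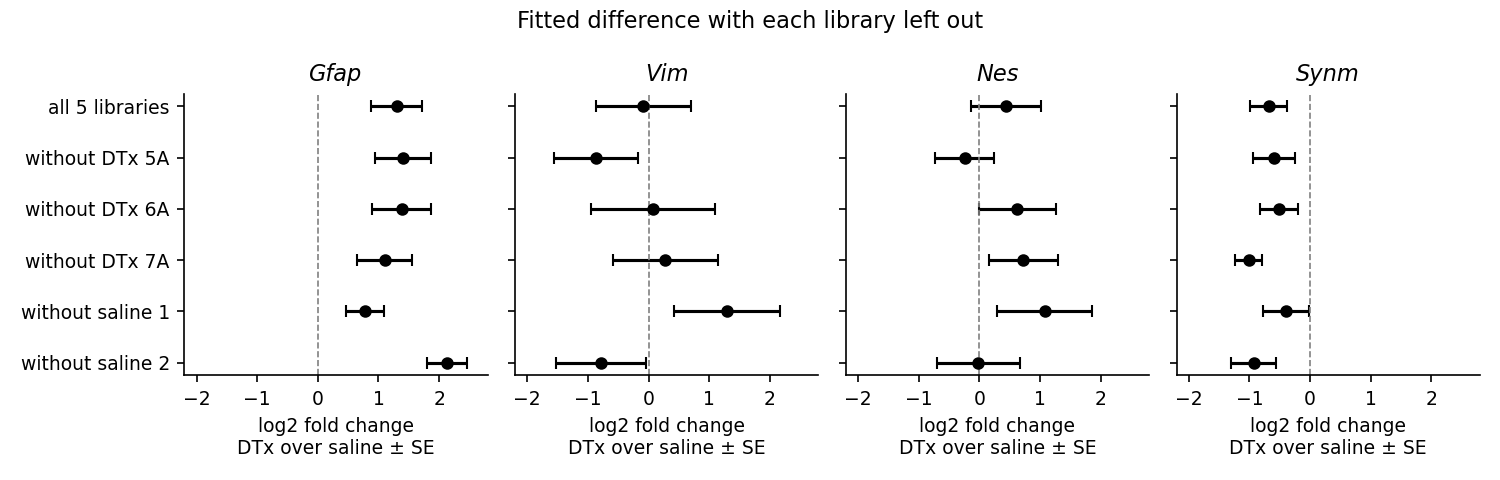
Fitted log2 fold change, DTx over saline, of each filament gene with all 5 libraries and with each library left out; points are estimates and bars are SE. Gfap stays between 0.78 and 2.13 and Synm between -1.01 and -0.39, while the estimates of Vim and Nes fall on both sides of 0.

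The same question was asked per amount of astrocyte RNA, by taking each gene's log2 CPM minus the mean log2 CPM of the 14 astrocyte identity genes in the same library. That marker mean was nearly level, at 10.3, 10.4 and 10.3 with DTx in 5A, 6A and 7A and 10.3 and 10.4 in saline replicates 1 and 2. Relative to it Gfap stood at -0.24, -0.29 and 0.33 in the DTx libraries and -2.11 and -0.84 in the saline libraries. The groups again did not overlap, and the difference of 1.41 had a two-sided exact permutation p of 0.1, the smallest that 3 against 2 libraries allow, and 0.4 adjusted over the 4 genes. Synm differed by -0.74, Nes by 0.31 and Vim by -0.03 on this scale, with exact permutation p of 0.3, 0.7 and 1. Atp1b2, the gene of the selected antigen, was lower with DTx in every library without passing, at 4672 ± 312 CPM (SD, n = 3) with DTx and 5577 ± 144 CPM (SD, n = 2) with saline (edgeR adjusted p = 0.805). Slc1a3, the glutamate transporter GLAST, varied most among these markers and overlapped between groups, at 4024, 5234 and 2075 CPM with DTx in 5A, 6A and 7A and 1671 and 2345 CPM in saline replicates 1 and 2.

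Levels were set side by side per kilobase of transcript, using the longest GENCODE transcript with a curated RefSeq accession, which is 2.648 kb for Gfap, 2.193 kb for Vim, 6.126 kb for Nes and 7.818 kb for Synm. On this scale Gfap led in every library, at 407.4, 427.5 and 607.8 CPM per kb with DTx and 109.6 and 279.8 CPM per kb with saline, and Nes was last in every library, at 0.932 CPM per kb or less. Synm averaged 7.32 ± 2.60 and Vim 7.13 ± 5.21 CPM per kb with DTx (SD, n = 3), and with saline they averaged 11.8 ± 3.09 and 7.63 ± 6.66 CPM per kb (SD, n = 2). The order of Synm and Vim was not settled by these libraries, since Vim exceeded Synm 2.07-fold in DTx library 5A and was 0.296 of it in DTx library 7A.

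The make-up of the filament RNA followed from these levels. Summed over the 4 genes it came to 427.6, 438.7 and 621.4 CPM per kb with DTx in 5A, 6A and 7A, and to 136.4 and 292.6 CPM per kb in saline replicates 1 and 2. Gfap made up 95.3%, 97.5% and 97.8% of it in the DTx libraries and 80.3% and 95.6% in the saline libraries. Saline replicate 1 was the exception, with 10.2% Synm and 9.04% Vim. Of the 6 ratios between pairs of members, the ratio of Gfap to Synm was the one that did not overlap between groups, at 64.9, 79.0 and 59.1 in the DTx libraries and 7.86 and 29.2 in the saline libraries. It was singled out after all 6 had been seen and was not tested. The ratio of Vim to Nes was the steadiest of the 6, at 13.9, 14.3 and 9.90 with DTx and 22.4 and 11.4 with saline.

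**Figure D3:**
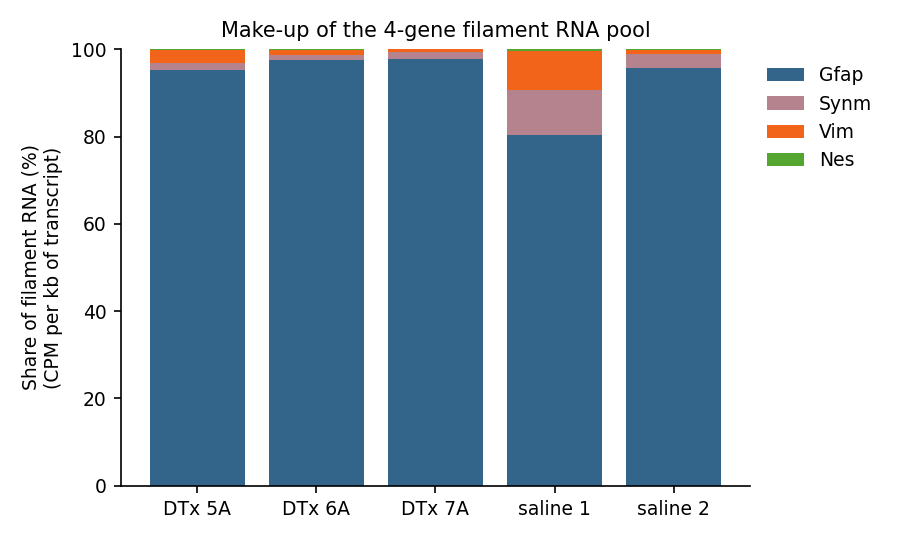
Share of each gene in the summed level of the 4 filament genes, in percent of CPM per kb of transcript, in the 3 DTx and 2 saline libraries. Gfap fills over 95% of the bar in 4 libraries and 80.3% in saline replicate 1, and Nes is at most 0.403%.

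Genes of nearest pattern were found by the root mean square (RMS) difference between centred log2 CPM profiles over the 5 libraries, among about 8572 named genes of at least 10 CPM. For Vim they were Rarres2, the gene of chemerin (RMS difference 0.153), Ccdc39, a gene of motile cilia (0.178), and Nme5 (0.239). Rarres2 was at 44.8, 24.0 and 13.2 CPM with DTx in 5A, 6A and 7A and 43.9 and 12.4 CPM in saline replicates 1 and 2. Ccdc39 was at 17.0, 8.71 and 5.01 CPM in the same DTx libraries and 17.8 and 5.47 CPM in the same saline libraries. Both were high in the libraries in which Vim was high. For Nes the nearest genes were St3gal6, a sialyltransferase (0.224), Txnip, the thioredoxin-interacting protein (0.250), and Ascc1 (0.251). For Synm they included Dock9, a Cdc42 exchange factor (0.0524), and Dpy19l1 (0.0732), which both had saline replicate 1 highest and DTx library 6A lowest. For Gfap they were Nfkbia, the NF-kB inhibitor (0.290), Plek, the gene of pleckstrin (0.315), and Plscr4, a phospholipid scramblase (0.372). Dock9 was at 48.1, 40.9 and 70.8 CPM with DTx and 103.1 and 71.0 CPM with saline. Nfkbia was at 71.6, 60.3 and 97.4 CPM with DTx and 28.1 and 47.9 CPM with saline.

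**Figure D4:**
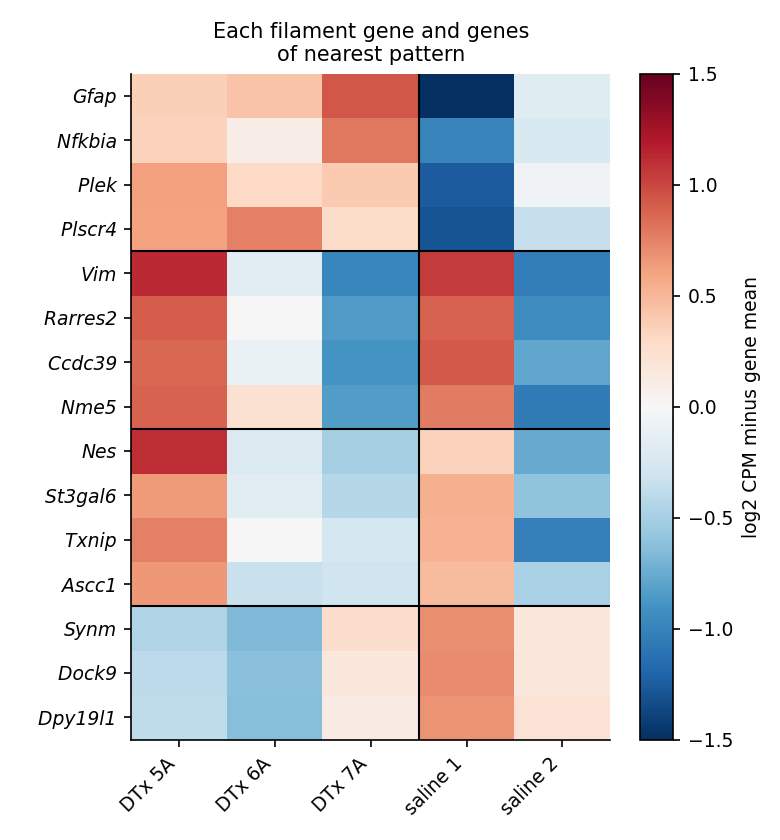
Log2 CPM minus each gene's mean over the 5 libraries, for each filament gene and, under it, genes with the smallest RMS difference from it, 3 each for Gfap, Vim and Nes and 2 for Synm (red, above the mean; blue, below it). Vim, Rarres2, Ccdc39 and Nme5 are above their means in DTx library 5A and saline replicate 1 and below them in DTx library 7A and saline replicate 2.

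Vimentin and nestin are also made by ependymal cells, tanycytes, blood vessels and fibroblasts, so markers of these cells were set beside them. The 7 ependymal and tanycyte markers were all detected and summed to 218.5, 67.4 and 39.1 CPM with DTx in 5A, 6A and 7A, and to 240.9 and 34.8 CPM in saline replicates 1 and 2. The libraries with the most Vim and Nes were thus those with the highest sums of these markers, though single markers differed. Tmem212, a marker of ciliated ependyma, was at 28.2, 1.31 and 0.114 CPM with DTx and 47.7 and 0.0897 CPM with saline, and Ccdc153 was at 39.4, 2.43 and 0.0570 CPM with DTx and 41.7 and 0.538 CPM with saline. Rax, a transcription factor of tanycytes, was at 17.1, 5.91 and 0.285 CPM with DTx and 0.554 and 0.135 CPM with saline. Col23a1 was likewise low in saline replicate 1, at 49.6, 17.9 and 5.70 CPM with DTx and 6.33 and 5.51 CPM with saline. Foxj1 was at 18.8, 11.3 and 17.9 CPM with DTx and 79.4 and 14.6 CPM with saline. For Foxj1, DTx libraries 5A and 7A were thus close. No ependymal marker was at 0 in all libraries, and the part of these cells in the levels of Vim and Nes was not tested. Endothelial markers summed to 17.3, 13.7 and 26.9 CPM with DTx and 19.9 and 22.2 CPM with saline, and pericyte and smooth muscle markers to 329.9, 279.1 and 336.3 CPM with DTx and 192.0 and 452.4 CPM with saline. Their part in the levels of Vim and Nes was not tested. Fibroblast markers summed to 67.1, 34.0 and 45.7 CPM with DTx and 47.7 and 41.1 CPM with saline. Genes of neural progenitors, which make nestin, and of dividing cells summed to 49.6, 62.4 and 39.1 CPM with DTx and 32.9 and 33.0 CPM with saline. Sox11 made up most of each sum, and the part of fibroblasts, progenitors and dividing cells in the levels of Vim and Nes was not tested. Of the 5 choroid plexus markers Clic6 made up most of the sum, at 67.8, 92.7 and 12.6 CPM with DTx and 9.33 and 8.29 CPM with saline, while Ttr, the transthyretin gene and the defining marker, averaged 0.168 CPM with DTx and 0.458 CPM with saline.

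Astrocytes at the brain surface and in white matter contain more GFAP than those of grey matter, and 7 of their genes were set beside Gfap. They summed to 544.2, 571.1 and 331.9 CPM with DTx in 5A, 6A and 7A and to 233.4 and 408.6 CPM in saline replicates 1 and 2. Fabp7 and Id3 made up most of each sum. The sum was lowest in saline replicate 1, with the least Gfap. In DTx library 7A, with the most Gfap, it lay below saline replicate 2. Of the 6 genes tested 5 had a log2 fold change above 0, where 50.4% of all genes tested did. The median over the 6 was 0.52, or 0.18 without DTx library 5A and 0.94 without saline replicate 2. S100a6, a calcium-binding protein, had separated groups, at 42.2, 39.7 and 27.6 CPM with DTx and 20.1 and 25.8 CPM with saline (edgeR adjusted p = 0.742). Fabp7, a fatty acid binding protein, overlapped, at 357, 400 and 191.4 CPM with DTx and 146.5 and 244.4 CPM with saline. Microglia markers summed to 424.9, 306 and 250.6 CPM with DTx and 102.6 and 252.3 CPM with saline. This sum was lowest in the library with the least Gfap, but in DTx library 7A, with the most, it was just under saline replicate 2. Of the 10 microglia markers, all detected, 4 had separated groups with DTx higher, against 12.1% of all genes tested. All 10 had a log2 fold change above 0. Their median was 0.87, or 0.32 without saline replicate 1 and 1.78 without saline replicate 2. Macrophage and monocyte markers summed to 78.4, 13.1 and 31.3 CPM with DTx and 11.2 and 16.5 CPM with saline. The part of these cell classes in the Gfap level was not tested.

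Of the 20 other intermediate filament genes listed, 15 could be tested and 0 passed in either direction with edgeR, DESeq2, limma-voom or the likelihood ratio test. With edgeR 1 of the 15 had an unadjusted p under 0.05, with DTx lower, as did 2.19% of all genes tested. The median log2 fold change of these 15 was -0.12, and leaving out saline replicate 1 made it 0.14, while leaving out saline replicate 2 made it -0.38. The neurofilament genes, which build the filaments of axons, were present throughout. Neuron markers summed to 389.1, 546.4 and 329.0 CPM with DTx and 300.2 and 251.0 CPM with saline. Of the 9 neuron markers 8 had a log2 fold change above 0, with a median of 0.80. Groups were separated with DTx higher for 4 of the 9, against 12.1% of all genes tested. An edgeR unadjusted p under 0.05 with DTx higher was found for 4, against 4.49% of all genes tested. The part of neurons in the neurofilament levels was not tested. Nefl, the light chain, was second to Gfap per length among these filament genes, at 29.2 ± 7.72 CPM per kb (SD, n = 3) with DTx and 25.4 ± 6.03 CPM per kb (SD, n = 2) with saline, and its log2 fold change was 0.20 ± 0.26 (SE, edgeR adjusted p = 0.878). Ina, the gene of alpha-internexin, was at 5.999 ± 0.388 CPM per kb with DTx and 4.95 ± 1.16 CPM per kb with saline. Nefh and Nefm averaged 3.397 and 2.506 CPM per kb with DTx and 3.18 and 3.34 CPM per kb with saline. Des, the desmin gene of muscle cells, and Prph, of peripheral neurons, stayed under 0.6 CPM per kb in every library. Exons of Ina, Nefl, Nefm and Des overlap exons annotated on the other strand, so their counts share the uncertainty of Synm.

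**Figure D5:**
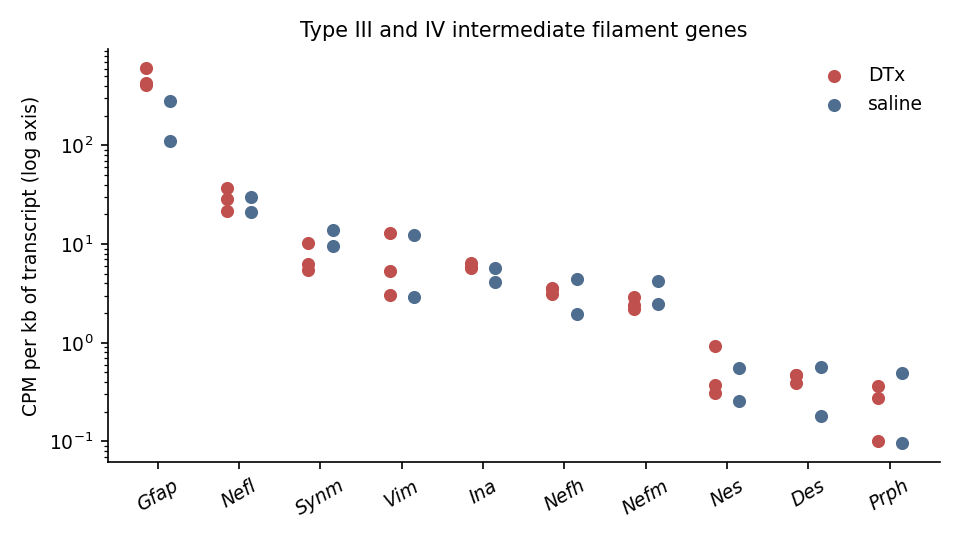
Levels of type III and type IV intermediate filament genes in CPM per kb of transcript on a log axis, ordered by their mean over the 5 libraries; points are libraries (red, DTx; blue, saline). Gfap is at 109.6 or above in every library and Nefl at 37.1 or below, and Nes, Des and Prph are all under 1.

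The listed gene with an unadjusted p under 0.05 was Bfsp2, a filament gene of the eye lens, at 13.7, 14.5 and 23.2 CPM with DTx in 5A, 6A and 7A and 25.7 and 31.9 CPM in saline replicates 1 and 2. Its groups did not overlap, and its log2 fold change was -0.75 ± 0.26 (SE, edgeR adjusted p = 0.742). Krt8 and Krt18, the keratins of simple epithelia, were found mainly in the libraries with the highest sums of ependymal and tanycyte markers. Krt18 was at 4.07, 0.311 and 0 CPM with DTx in 5A, 6A and 7A and 4.89 and 0.0897 CPM in saline replicates 1 and 2. Krt8 was at 2.27, 0.249 and 0 CPM in the same DTx libraries and 1.89 and 0 CPM in the same saline libraries.

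Filaments are tied to other structures by plakins and kept from clumping by small heat shock proteins. Of 13 such linkers and chaperones tested, 0 passed with edgeR or the other tools and 0 had an edgeR unadjusted p under 0.05, and their median log2 fold change was -0.04. Plec, the gene of plectin, which crosslinks vimentin and GFAP filaments, was at 31.3 ± 3.08 CPM (SD, n = 3) with DTx and 31.5 ± 9.95 CPM (SD, n = 2) with saline. Cryab, the gene of alpha-B crystallin, a chaperone of GFAP that oligodendrocytes also make, was at 591.1, 588.3 and 868.9 CPM with DTx in 5A, 6A and 7A and 862.1 and 1160 CPM in saline replicates 1 and 2, in the order of the oligodendrocyte marker sum except at its lowest libraries. Its log2 fold change was -0.57 ± 0.25 (SE, edgeR adjusted p = 0.762). Hspb1, the small heat shock protein Hsp25, was at 1.30 ± 0.980 CPM with DTx and 1.68 ± 1.35 CPM with saline. Hspb8 overlapped too, at 37.3 ± 3.87 CPM with DTx and 24.7 ± 13.6 CPM with saline.

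Filaments are taken apart by phosphorylation, proteolysis and, for GFAP and vimentin, citrullination by Padi2. Of 13 genes of this kind tested 0 passed and 0 had an edgeR unadjusted p under 0.05, with a median log2 fold change of -0.09, and the other tools called 0 as well. Rock1, a kinase that phosphorylates GFAP, was at 86.7 ± 4.97 CPM with DTx and 94.5 ± 12.2 CPM with saline. Padi2 was at 45.1, 49.3 and 122.5 CPM with DTx in 5A, 6A and 7A and 87.3 and 112.7 CPM in saline replicates 1 and 2.

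The Gfap gene is switched on by cytokines of the interleukin 6 family through gp130, JAK kinases and STAT3, together with BMP, Notch and nuclear factor I signals. Of 27 such regulators tested 0 passed with any of the 4 tools, 2 had an edgeR unadjusted p under 0.05 with DTx higher, and the median log2 fold change was -0.02. Those with DTx higher in separated groups numbered 4 of 27 and those with DTx lower 3 of 27, near the 12.1% and 8.99% of all genes tested. An unadjusted p under 0.05 with DTx higher was found in 4.49% of all genes tested. Stat3 was at 143.4, 168 and 148.2 CPM with DTx in 5A, 6A and 7A and 114.9 and 121.3 CPM in saline replicates 1 and 2, a log2 fold change of 0.38 ± 0.15 (SE, edgeR adjusted p = 0.745). Osmr, the receptor of oncostatin M, was at 3.96, 3.67 and 3.30 CPM with DTx and 0.923 and 2.02 CPM with saline, a log2 fold change of 1.30 ± 0.39 (SE, edgeR adjusted p = 0.742). These were the regulators with the unadjusted p under 0.05, and in each the lowest saline library was also that with the least Gfap. The order among the DTx libraries differed from that of Gfap. DTx library 7A, with the most Gfap, had the least Osmr, and Stat3 was highest in DTx library 6A. Il6st, the gene of gp130, lay the other way in groups separated by a narrow gap, at 118.5 ± 14.9 CPM with DTx and 134.2 ± 6.403 CPM with saline, and Socs3, the feedback inhibitor that STAT3 induces, was at 7.30 ± 3.44 CPM with DTx and 10.3 ± 9.06 CPM with saline. Jun, an AP-1 subunit, was lower in separated groups, at 107.2 ± 34.7 CPM with DTx and 184.8 ± 70.5 CPM with saline (edgeR adjusted p = 0.764).

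The list of genes that astrocytes switch on with Gfap in many injuries held 11, of which 9 were tested. Lcn2, with at most 1 count in any library, and Steap4 had too few counts to be tested. Among the 9 tested, 0 passed with edgeR or limma-voom, and 4 had an edgeR unadjusted p under 0.05, all with DTx higher. DESeq2 and the likelihood ratio test called 2 of the 9 with DTx higher, Serpina3n and Cxcl10. Over all 15532 genes tested DESeq2 called 95 with DTx higher and the likelihood ratio test 81. Osmr is in this list and among the regulators. The median log2 fold change was 1.02, against 0.00238 for all genes tested, and was 0.34 without DTx library 5A. Groups were separated with DTx higher for 5 of the 9, against 12.1% of all genes tested. Of all genes tested 4.49% had an unadjusted p under 0.05 with DTx higher. Timp1 and Cxcl10 were among the 5 and among the 4 with an unadjusted p under 0.05. Both had fewer than 10 counts in each saline library and passed the filter on low counts only through DTx libraries. For these 2 genes the direction was thus partly fixed by the filter. The median and both counts include them, so the comparison with all genes tested is limited to that extent. The log2 fold changes of the other genes tested were 1.30 for Osmr, 1.16 for Serpina3n, 1.02 for Cd44 and 0.45 for Cp. They were 0.43 for Aspg, 0.22 for S1pr3 and -0.32 for Hspb1. Cd44 was at 13.3 CPM in DTx library 5A and at 3.14 to 3.65 CPM in the others. Serpina3n, a serine protease inhibitor, was at 52.5, 58.0 and 39.3 CPM with DTx in 5A, 6A and 7A and 21.8 and 22.9 CPM in saline replicates 1 and 2. The order within groups differed from that of Gfap, since DTx library 7A had the most Gfap and the least Serpina3n of its group. Timp1, a metalloproteinase inhibitor, was at 0.767 ± 0.298 CPM with DTx and 0.181 ± 0.0606 CPM with saline. It had only 21, 10 and 10 counts with DTx and 3 and 5 counts with saline. Cxcl10, an interferon-induced chemokine, was at 4.60, 11.6 and 0.513 CPM with DTx in 5A, 6A and 7A and had 0 counts in saline.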

How the data were processed

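The authors deposited raw counts of reads per gene, 1 column per library. The submitters' processing notes name edgeR 3.42.4, featureCounts 2.0.1, STAR 2.7.5c, fastp 0.23.2, MultiQC 1.11 and FastQC 0.11.9, and builds GRCm38 and mm10, with no settings, annotation or strand use. Libraries started from 5 ng of RNA, per the labels' protocols. Saline columns were matched by their number and DTx columns to the group alone; 1 further column of per-sample values was not used. Separate animals are not stated per library, so p-values rest on the spread between libraries, which may be technical.

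Counts were fitted with edgeR 4.0.16 in R 4.3.3 (TMM, filterByExpr with a minimum count of 10, robust quasi-likelihood test, Benjamini-Hochberg over 15532 genes, threshold 0.05), a test checked on simulated data. CPM use TMM-scaled library sizes. Fold changes put DTx over saline. The two-sided exact permutation test had 10 regroupings, and Poisson intervals cover counting error only. Alternatives used DESeq2 1.42.0, limma 3.58.1, other scalings and filters, and each library left out. Exons and lengths come from GENCODE, positions and start windows from RefSeq.

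The 4 genes, the 19 gene lists and the tests were chosen with earlier results of these data known. Named genes are the 4, the 3 of nearest pattern to each, up to 4 of smallest p per list and those whose role bears on a member. Krt8, Krt18, Padi2, Hspb8, Rock1, Fabp7, Socs3, Il6st, Jun, Actb and the cell type markers named beside them were picked after their values were seen. Some genes that this rule names are not reported here.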

Additional observations from a re-analysis of the deposited data

How the results depend on the processing

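With 3 DTx and 2 saline libraries, the fold changes of all 4 filament genes carry wide errors, and a missed threshold does not show that the levels were alike. Gfap and Synm kept their sign, and stayed short of the threshold, under all 9 other scalings, filters and tests and with each of the 5 libraries left out. The log2 fold change of Gfap was 1.29 to 1.44 under the 9 and 0.78 to 2.13 with a library left out, and that of Synm was -0.71 to -0.68 and -1.01 to -0.39. Vim turned positive with limma-voom, at 0.0193, and was -0.87 to 1.29 with a library left out. Nes was -0.24 to 1.08 with a library left out. Relative to astrocyte markers, leaving out a library gave 0.77 to 2.05 for Gfap, -1.05 to -0.43 for Synm, -1.10 to 1.035 for Vim and -0.26 to 0.87 for Nes. Where 1 saline library was left out, the lone one is assumed to vary like the DTx libraries. Over all genes 5 passed with edgeR, namely Xist and the Y-linked set. The count was 111 with DESeq2 and 93 with the edgeR likelihood ratio test. With a DTx library left out it was 3 to 13 with edgeR, 3 without DTx library 6A and 13 without DTx library 7A. The cause was not tested. No paired analysis was possible because no label holds the numbers in the DTx column names. Depth limited Nes most, with 33 to 108 counts per library.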

Other observations

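The other main parts of the cytoskeleton, actin and microtubules, were described by 20 genes, all tested. With edgeR's quasi-likelihood test 0 passed, 2 had an unadjusted p under 0.05 with DTx higher, and the median log2 fold change was 0.07, or -0.08 without saline replicate 1. Of all genes tested 4.49% had such a p with DTx higher. Groups did not overlap for 3 of the 20 with DTx higher and 2 of the 20 with DTx lower. These were near the 12.1% and 8.99% of all genes tested. DESeq2, limma-voom and the edgeR likelihood ratio test called 0 as well. The 2 genes with an unadjusted p under 0.05 were tubulins. Tuba1b was at 38.9, 40.9 and 31.8 CPM with DTx in 5A, 6A and 7A and 26.4 and 28.5 CPM in saline replicates 1 and 2. Tubb5 was at 129.9, 132.6 and 99.5 CPM in the same DTx libraries and 77.9 and 94.9 CPM in the same saline libraries. Their groups did not overlap, with edgeR adjusted p of 0.744 and 0.745. Tubb4a, a tubulin that oligodendrocytes make in quantity and that was picked after its values were seen, was at 1075, 1216 and 2515 CPM in the DTx libraries and 1829 and 2704 CPM in the saline libraries, which is the order of the oligodendrocyte marker sums. Markers of oligodendrocyte precursors summed to 462.3, 648.2 and 913.1 CPM with DTx and 725.7 and 928.3 CPM with saline. Actb, the gene of beta-actin, was at 1566, 1774 and 2744 CPM with DTx and 2414 and 2262 CPM with saline.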
